A study of Mus musculus with 16 samples.

Results

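The genes of the proteasome, the barrel-shaped protease that degrades ubiquitin-tagged proteins, were followed in mouse quadriceps with and without a skeletal muscle knockout of Nampt. Members were all genes whose symbol starts with Psm, continues with a letter from a to g and then a digit, with pseudogene names left out. The rule took 50 of the 45706 genes in the deposited table. Of these, 49 names belong to subunits, activators, an inhibitor and assembly chaperones, and 1 name, Psmc3ip, belongs to a partner of a meiotic recombination protein that is not a proteasome subunit.

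Polyadenylated RNA of quadriceps was sequenced in 16 libraries, 8 labelled knockout (KO) and 8 labelled wild type (WT). The labels give the genotype as KO or WT only; that the deleted gene is Nampt, which encodes the rate-limiting enzyme of NAD salvage, and that it was deleted in skeletal muscle is known from the study. The driver of the deletion, the sex, the age and the litter of the animals, and any treatment the groups shared are not stated in the labels. Whole muscle was used, so vessels, leukocytes and fibroblasts, which a deletion limited to muscle fibres leaves intact, contributed RNA to every library.

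Total estimated counts per library ran from 16065394 to 51881258. Nampt itself lay between 60.4 and 88.7 CPM (counts scaled to a common library size with TMM) across KO and between 126 and 161 CPM across WT, a log2 fold change of -0.95 with an adjusted p of 9.68e-07 (edgeR's quasi-likelihood test, Benjamini-Hochberg adjustment). Every KO library was below every WT library for Nampt, in the direction of the labels. Summed over 8 muscle fibre genes, among them Acta1 and Myh4, the libraries held 143924 to 181387 CPM, so all 16 carried the RNA of fast skeletal muscle. Across the transcriptome 6 of 13792 tested genes passed an adjusted p of 0.05.

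The proteasome consists of a core particle, built from rings of alpha subunits that form the gate and rings of beta subunits that hold the proteolytic sites, and of a regulatory particle whose ATPases unfold substrates and whose other subunits bind and remove ubiquitin. In most tissues the proteolytic sites are made by Psmb5, Psmb6 and Psmb7. Interferon, and the leukocyte lineage, favour the replacement subunits Psmb8, Psmb9 and Psmb10, which form the immunoproteasome and shift the peptides made for antigen presentation. In muscle, proteasome genes are known to be induced during atrophy, and NFE2L1 is the transcription factor that raises them when proteasome activity is short.

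Promoter windows were read to show where core and interferon-linked members carry the letters of those known regulators. RefSeq promoters (GRCm38.p6, 250 bases before to 50 bases after a gene's start) were matched by symbol for 42 of the 50 members, as 45 promoters, and were searched on both strands. The motif TGACNNNGC, the core of the element bound by NFE2L1 and NFE2L2, stood in 6 of 45 member promoters (13.3%) and in 12.4% of all 32851 promoters of the same length. Psma8, Psmb1, Psmb2, Psmb7, Psmc3, Psmd3, Psmd7 and Psmg2 had no entry and were not searched. Among the catalytic subunits searched it stood in the promoters of Psmb5, at chr14:54618024-54618052 on the minus strand with the motif's first base at position -47 from the start, and of Psmb6, at chr11:70525338-70525366 on the plus strand with its first base at position -9. The motif TTCNNNGAA, known as the gamma-activated site, stood in 3 of 45 member promoters (6.67%) against 8.3% of all, among them Psmb8 at chr17:34198088-34198116 on the plus strand, position -97. The interferon-stimulated response element, searched as a 10-letter motif, stood in 5 of 45 (11.1%) against 3.44% of all. These were Psmb3, Psmd4, Psmd9, Psme1 and Psmg4, while Psmb8, Psmb9, Psmb10 and Psme2 were searched and did not hold it. In Psme1 it stood at chr14:55578493-55578522 on the plus strand, where the capitals are its reverse complement 9 bases after the start. CCAAT, bound by NF-Y, stood in 15 of 45 (33.3%) against 37.4% of all. Positions count from the RefSeq start, which differs from the start in the gene coordinates given below. The Psmb8 and Psme1 windows lie inside those coordinates. Where motifs share bases within a promoter they were counted separately. The sequences run from 5′ to 3′ on the gene's strand, with the match in capitals.
Psmb5: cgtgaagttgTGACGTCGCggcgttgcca
Psmb6: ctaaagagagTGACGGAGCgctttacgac
Psmb8: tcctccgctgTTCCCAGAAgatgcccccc
Psme1: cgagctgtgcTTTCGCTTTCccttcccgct
These matches describe the letters in the window; binding was not measured.

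Between KO and WT no proteasome gene passed the test over all genes: 0 of the 47 tested members had an adjusted p under 0.05 in edgeR's quasi-likelihood test, beside 0.0435% of all 13792 tested genes (0.0218% higher and 0.0218% lower). DESeq2 called 0 members, beside 1.29% of the genes it gave an adjusted p. It left 8 members without one, among them Psmb8, Psmb9 and Psmb10, so it could not call these. With limma-voom 0 members were called, beside 0.0363%. At an unadjusted p under 0.05, edgeR had 2 members, Psmd6 lower and Psmb10 higher in KO, which is 4.26% of the tested members beside 9.57% of all tested genes (4.02% higher and 5.55% lower). At that threshold DESeq2 had 3, Psma6, Psmc4 and Psmd6, beside 9.3% of all genes, and limma-voom had 1, Psmd6, beside 9.7%. The ranges of the KO and WT libraries overlapped for all 47, beside a share of 0.123% of all genes whose ranges did not.

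The intervals around these differences were narrow for most members. The 95% interval of the KO to WT ratio stayed within 1.2-fold up or down for 41 of the 47 tested members (87.2%), against 52.3% of all tested genes, and within 1.5-fold for 47 of 47, against 86.2%. The exceptions at 1.2-fold were Psmb8, Psmb9, Psmb10, Psme4, Psmg4 and Psmc3ip. The median log2 fold change was -0.02 over members and 0.00 over all tested genes, and 29 members lay below 0 and 18 above. The members are more abundant than most genes, with a median of 56.8 CPM against 10.2 CPM.

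**Figure D1:**
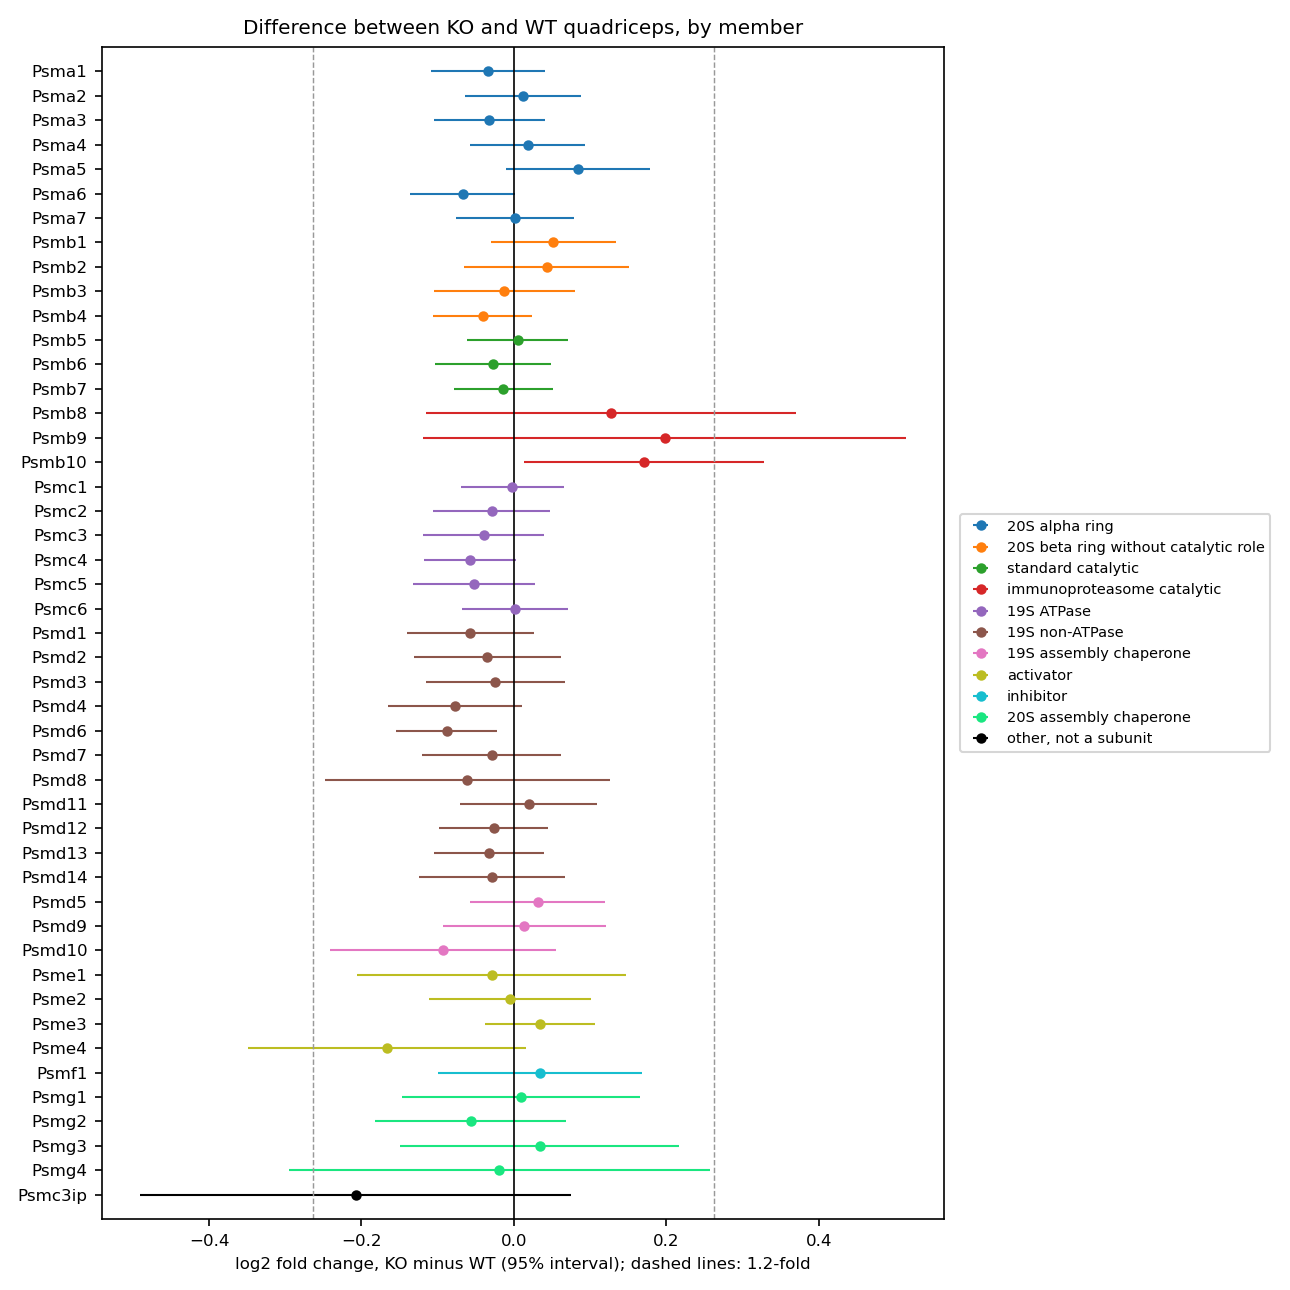
Log2 fold change of each tested member, KO minus WT (points), with its 95% interval (lines); colours are the roles, 20S being the core particle and 19S the regulatory particle, and the dashed lines mark 1.2-fold. For 41 of 47 members the whole interval lies between the dashed lines. Among the catalytic subunits, Psmb8, Psmb9 and Psmb10 of the immunoproteasome have the widest intervals. Their points lie above 0, and the intervals of Psmb8 and Psmb9 include 0.

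The 3 standard catalytic subunits had nearly the same level in both genotypes. Psmb5 (ENSMUSG00000022193, chr14:54614119-54618022 on the minus strand, GRCm38), which carries the chymotrypsin-like site, had a lowest, median and highest value of 67.1, 69.8 and 72.0 CPM in KO, against 64.3, 69.6 and 73.5 CPM in WT. Its KO values lay within the WT range, and the log2 fold change was 0.00 (SE 0.03, adjusted p = 0.984 by edgeR). Psmb6 (ENSMUSG00000018286, chr11:70525367-70527858, plus strand), the caspase-like site, ran 80.0, 89.3 and 96.5 CPM in KO, against 88.4, 90.1 and 94.3 CPM in WT. KO replicate 4 held the low end and KO replicate 5 the high end, so KO spanned the whole WT range, and the difference was -0.03 (SE 0.04, adjusted p = 0.860 by edgeR). Psmb7 (ENSMUSG00000026750, chr2:38588036-38644087, minus strand), the trypsin-like site, ran 117, 124.5 and 129.5 CPM in KO and 117.9, 126 and 130.5 CPM in WT. These ranges overlap almost entirely, with a log2 fold change of -0.01 (SE 0.03, adjusted p = 0.928 by edgeR). Over the 3 subunits the 95% intervals ran from 0.930-fold to 1.05-fold.

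Each of the 3 immunoproteasome subunits had a higher mean in KO, with wide spread and no adjusted p under 0.05. Psmb8 (ENSMUSG00000024338, chr17:34197721-34201454, plus strand), the counterpart of Psmb5, ran 3.41, 4.33 and 5.44 CPM in KO, against 3.13, 4.16 and 5.07 CPM in WT. The groups overlapped over most of their range, with 6 of 8 KO libraries above the WT mean, and the log2 fold change was 0.13 (SE 0.12, adjusted p = 0.776 by edgeR). Psmb9 (ENSMUSG00000096727, chr17:34181987-34187764, minus strand), the counterpart of Psmb6, ran 1.23, 2.07 and 2.58 CPM in KO, against 1.28, 1.77 and 2.30 CPM in WT. KO held both the lowest library, replicate 5, and the highest, replicate 6, and the log2 fold change was 0.20 (SE 0.15, adjusted p = 0.726 by edgeR). Psmb10 (ENSMUSG00000031897, chr8:105935735-105938444, minus strand), the counterpart of Psmb7, ran 4.78, 5.59 and 7.01 CPM in KO, against 4.50, 5.00 and 5.63 CPM in WT. KO replicate 2, at 7.01 CPM, stood above the other KO libraries, 7 of 8 KO libraries exceeded the WT mean, and the log2 fold change was 0.17 (SE 0.07, 95% interval 0.01 to 0.33). Leaving out 1 library, the log2 fold change of Psmb8 ran from 0.07 (without KO replicate 3) to 0.19 (without WT replicate 4), that of Psmb9 from 0.14 to 0.27 and that of Psmb10 from 0.13 to 0.21. For Psmb10 the unadjusted p was 0.0349 and the adjusted p 0.473 by edgeR's quasi-likelihood test. Summed, the 3 immunoproteasome subunits made 12.1 ± 1.23 CPM (SD, n = 8) in KO and 10.8 ± 1.17 CPM (SD, n = 8) in WT, beside 283 ± 9.75 and 286 ± 7.52 CPM for the 3 standard subunits.

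In whole muscle, a different number of cells of a type and a different amount of RNA per cell cannot be told apart. Beside these values, 9 of the 10 tested leukocyte markers lay above 0, with a median log2 fold change of 0.10, and 0 of 10 passed the adjusted test by edgeR. Their summed level, over all 12 markers of the list, ran from 50.8 to 117 CPM over the KO libraries and from 53.9 to 117 CPM over the WT libraries. Ptprc, Cd68 and Csf1r, which define leukocytes and macrophages, were above the filter. Of the endothelial markers 9 of 10 also lay above 0, with a median of 0.11, and summed to 376 to 412 CPM in KO and 343 to 392 CPM in WT. At an unadjusted p under 0.05 stood 3 of the 10 endothelial markers, all higher in KO, beside 4.02% of all genes: Cdh5 at 0.18 (adjusted p = 0.235 by edgeR), Emcn at 0.19 (0.435) and Tie1 at 0.13 (0.496). Of the leukocyte markers Coro1a stood there, at 0.34 (adjusted p = 0.522). The part of either cell type in the immunoproteasome values was not tested.

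Per length of exon sequence the standard subunits exceeded their immunoproteasome counterparts by a wide margin in every library. Levels per length are CPM divided by the kilobases of the union of a gene's exons (GENCODE vM21, GRCm38). On this scale Psmb5 was 62.9 times Psmb8, Psmb6 was 92.4 times Psmb9 and Psmb7 was 11.6 times Psmb10, as means over the 16 libraries. With the length of the longest coding transcript in place of the exon union the ratios were 30.3, 80.1 and 26.3. The order of the 3 pairs was the same under both lengths, and the sizes differed. Psmb8 made up 1.63 ± 0.254% (SD, n = 8) of the sum of Psmb8 and Psmb5 in KO and 1.498 ± 0.248% in WT. Psmb9 made up 1.15 ± 0.287% of its pair in KO and 0.993 ± 0.147% in WT, and Psmb10 made up 8.44 ± 1.04% of its pair in KO against 7.44 ± 0.659% in WT (SD, n = 8). On the longest coding transcript the Psmb10 share was 3.91% in KO and 3.43% in WT. No library held more than 10.7% of an immunoproteasome subunit in its pair.

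**Figure D2:**
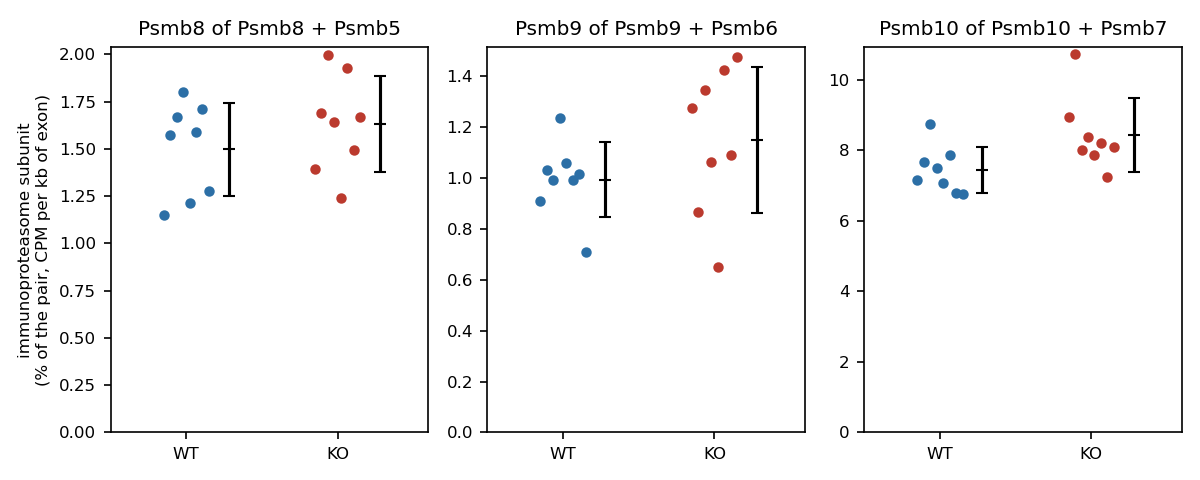
Share of each immunoproteasome subunit in the sum with its standard counterpart, per length of exon union in percent, for each KO and WT library (points), with the mean and SD of the 8 libraries. The Psmb8 and Psmb9 shares reach at most 2.00%, and the Psmb10 share runs from 6.77 to 10.7%, with KO replicate 2 the highest.

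Whether the balance between the 2 kinds of proteolytic subunit shifted was tested within each library, on the log2 ratio of each immunoproteasome subunit to its counterpart (CPM plus a pseudocount of 0.5). The ratio of Psmb10 to Psmb7 had a log2 difference of 0.18, KO minus WT (95% interval 0.02 to 0.34, p = 0.0250 in an exact two-sided permutation test over 12870 assignments). Adjusted over the 3 ratios its p was 0.0751, which misses the threshold of 0.05, and the ratio of 7 of 8 KO libraries exceeded the WT mean. The Psmb8 to Psmb5 ratio was 0.11 higher (interval -0.12 to 0.34, exact permutation p = 0.308, adjusted 0.308, 6 of 8 libraries above). For Psmb9 to Psmb6 the difference was 0.15 (interval -0.13 to 0.42, exact permutation p = 0.256, adjusted 0.308, 6 of 8 above). Without WT replicate 3 the Psmb10 to Psmb7 difference was 0.21 (adjusted exact permutation p = 0.0131), without KO replicate 7 it was 0.21 (0.0289) and without KO replicate 5 it was 0.19 (0.0457), while without KO replicate 2 it was 0.12 (0.152). It passed in these 3 of the 16 leave-outs and missed in 13, with adjusted p up to 0.159. Without KO replicate 5 the Psmb9 to Psmb6 difference was 0.24 (adjusted exact permutation p = 0.0457). The upper ends of the intervals leave room for a shift of 0.34 to 0.42 on the log2 scale.

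The alpha ring, Psma1 to Psma7, lay around 0, with 4 members above, 3 below and a median log2 fold change of 0.00. Psma5 had the largest positive difference, from 25.2 ± 1.85 CPM in WT to 26.7 ± 1.09 CPM in KO (SD, n = 8), a log2 fold change of 0.08 (SE 0.05, adjusted p = 0.591 by edgeR). Psma6 had the largest negative one, from 68.8 ± 2.16 to 65.6 ± 2.59 CPM, a log2 fold change of -0.07 (SE 0.03, adjusted p = 0.535). Per length Psma6 was also the highest of the ring at 54.4 CPM per kb, and Psma2 the lowest at 13.3 CPM per kb. Among the beta subunits without a proteolytic site, 2 lay above 0 and 2 below, from -0.04 for Psmb4 to 0.05 for Psmb1. Psmb2 was the highest of these per length, at 37.4 CPM per kb, and Psmb1 the lowest, at 12.4 CPM per kb. All 14 core subunits of the standard particle had intervals inside 1.2-fold.

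In the regulatory particle 15 of 17 members lay below 0, with a median log2 fold change of -0.03. Beside this, 48.2% of all tested genes lay below 0. Whether the median of the particle differs from 0 was not tested. The members are counted in the same libraries and so are not independent. Of the 6 ATPases, which thread the substrate into the core, 5 were below 0, from -0.06 for Psmc4 (SE 0.03, adjusted p = 0.552 by edgeR) to 0.00 for Psmc6. Psmc5 was the highest of them per length, at 59.3 CPM per kb, and Psmc2 the lowest, at 17.4 CPM per kb.

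Of the 11 other subunits of the regulatory particle, 10 were below 0. Psmd6 (ENSMUSG00000021737, chr14:14112174-14120984, minus strand), a subunit of the lid, ran 79.1, 82.0 and 85.1 CPM in KO, against 83.4, 86.5 and 94.5 CPM in WT. No KO library reached the WT mean of 87.3 CPM, although the ranges overlapped between 83.4 and 85.1 CPM. Its log2 fold change was -0.09 (SE 0.03, unadjusted p = 0.0123, adjusted p = 0.352 by edgeR), the largest negative value in the particle, and it stayed between -0.10 and -0.07 in all 27 alternative fits. Psmd4, a receptor for ubiquitin chains, differed by -0.08 on the log2 scale (adjusted p = 0.595), and Psmd14, the deubiquitinase of the lid, had -0.03 (adjusted p = 0.895). Psmd11, another lid subunit, was the 1 member above 0, at 0.02. Per length Psmd2, the large scaffold subunit, was the highest at 62.1 CPM per kb and Psmd14 the lowest at 13.4 CPM per kb. Over the core and regulatory particle together, 31 genes without the immunoproteasome subunits, every 95% interval lay between 0.842-fold and 1.13-fold.

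Among the 4 tested activators, differences ran from -0.17 for Psme4 to 0.03 for Psme3. Psme1 and Psme2 encode the subunits of the interferon-inducible ring that opens the core without ubiquitin. Psme1 (ENSMUSG00000022216, chr14:55578123-55581529, plus strand) ran 20.8, 24.2 and 32.1 CPM in KO, against 21.2, 24.9 and 30.0 CPM in WT. KO replicate 6 was the highest of the 16 libraries, and without it the log2 fold change of -0.03 (SE 0.08, adjusted p = 0.950 by edgeR) became -0.10. Psme2 (ENSMUSG00000079197, chr14:55587441-55591113, minus strand) ran 11.9, 13.4 and 15.1 CPM in KO, against 12.7, 13.2 and 14.4 CPM in WT. The KO values of Psme2 spanned the WT range, and the log2 fold change was -0.01 (SE 0.05, adjusted p = 0.988). The signs of both, like that of Psmb5, turned in some alternative fits. Psme3, the nuclear activator, had 0.03 (adjusted p = 0.804).

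Psme4, the large single-chain activator, averaged 282 ± 28.9 CPM in KO against 317 ± 45.2 CPM in WT (SD, n = 8), a log2 fold change of -0.17 (SE 0.09, unadjusted p = 0.0708, adjusted p = 0.569 by edgeR). KO ran from 248.5 to 339.5 CPM, and 1 of 8 KO libraries exceeded the WT mean. WT replicate 3, at 214 CPM, was the lowest library of all, and without it the log2 fold change was -0.23 with an adjusted p of 0.204 by edgeR. Psme4 had the highest CPM of all members, and per length it ranked 13 of 47, at 35.7 CPM per kb, the highest of the activators. Psme2 was the lowest tested activator, at 7.55 CPM per kb.

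The inhibitor Psmf1 was at 12.0 ± 1.03 CPM in KO, against 11.8 ± 1.05 CPM in WT (SD, n = 8), a log2 fold change of 0.03 (adjusted p = 0.915 by edgeR). Chaperones that assemble the regulatory particle ran from -0.09 for Psmd10 (adjusted p = 0.725) to 0.03 for Psmd5. On the scale of CPM per kb they were low, between 2.00 for Psmd5 and 3.72 for Psmd10. Chaperones that assemble the core ran from -0.06 for Psmg2 (adjusted p = 0.819) to 0.03 for Psmg3, and from 1.41 CPM per kb for Psmg3 to 6.11 for Psmg2. Psmc3ip, the gene that shares only the name, had -0.21 (SE 0.13, adjusted p = 0.672) at 1.03 ± 0.233 CPM in KO, against 1.18 ± 0.127 CPM in WT.

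Of the 50 members, 3 were below the count filter and were not tested. Psmb11, the thymus-specific catalytic subunit, had 0 counts in all 16 libraries, where 3 counts would be 0.0543 to 0.183 CPM by library. Psma8, the alpha subunit of male germ cells, had 10 counts in all, in 7 libraries. Psme2b, a near-identical copy of Psme2, had 145 counts in all, between 0.129 and 0.488 CPM, and how reads were divided between it and Psme2 is uncertain.

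In quadriceps the 47 tested members spanned from 0.518 CPM per kb for Psmb9 to 77.3 CPM per kb for Psmb5. The standard core and regulatory subunits lay between 12.4 and 77.3 CPM per kb. Chaperones, the inhibitor and the immunoproteasome subunits all lay below them, between 0.518 and 6.11 CPM per kb. Next below Psmb5 came Psmd2 at 62.1, Psmc5 at 59.3 and Psmc3 at 56.3 CPM per kb; Psmd8, Psma6 and Psmd7 followed between 54.4 and 54.9 and did not differ beyond their SD over libraries. With the longest coding transcript as length, Psmb6 was the highest at 112 and Psmb7 next at 108, and Psmb5 ranked 7 at 77.3. The ranks under the 2 lengths had a Spearman rho of 0.939 over the 47 tested members, which share libraries and counts.

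**Figure D3:**
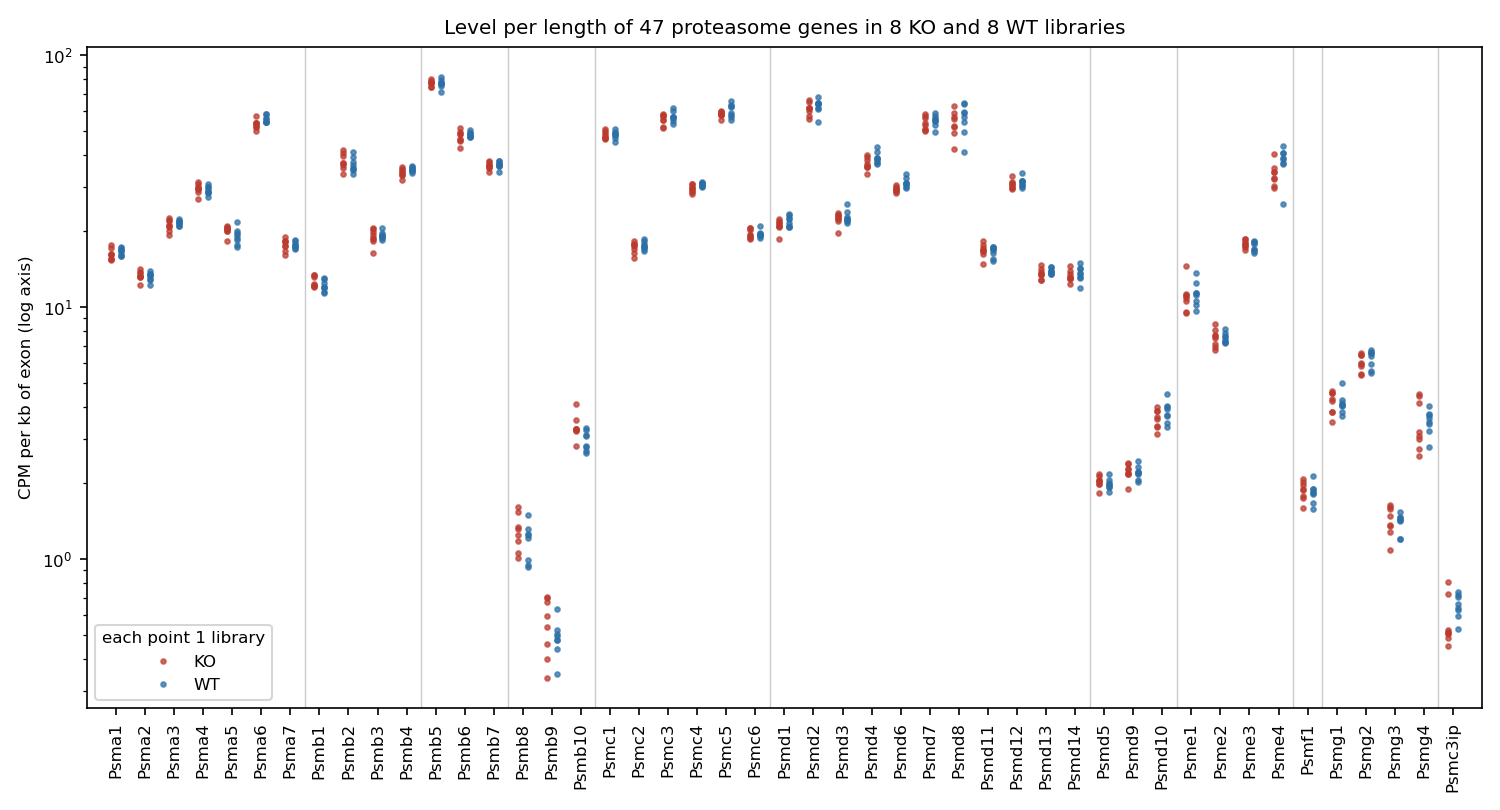
Level of each tested member per length of exon union (CPM per kb, log axis) in each KO and WT library (points), with grey lines between the role groups. The standard core (20S) and regulatory (19S) subunits lie between 12.4 and 77.3 CPM per kb, and the immunoproteasome subunits lie at 0.518 for Psmb9, 1.23 for Psmb8 and 3.15 for Psmb10.

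Between libraries of a genotype, most members varied little. The SD of log2(CPM + 0.5) within a genotype had a median of 0.0781 over the 47 tested members and 0.155 over all tested genes, and edgeR's dispersion had medians of 0.00421 and 0.0104. Psmc4 varied least, with an SD of 0.0371. Immunoproteasome subunits varied more, from 0.129 for Psmb10 to 0.256 for Psmb9. Their median level was 4.16 CPM, against 89.7 CPM for the standard catalytic subunits, and Psmb9 had 21 to 96 counts per library. Over all members the median level was 56.8 CPM, against 10.2 CPM over all tested genes. The SD includes counting noise, which is larger at low counts, and its part in these differences was not tested. Psmd8, a lid subunit, was an exception at high level, with an SD of 0.197 and a range from 126 CPM in WT replicate 7 to 198 CPM in WT replicate 6. The SD of Psme4 was 0.194 and that of Psme1 was 0.174.

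**Figure D4:**
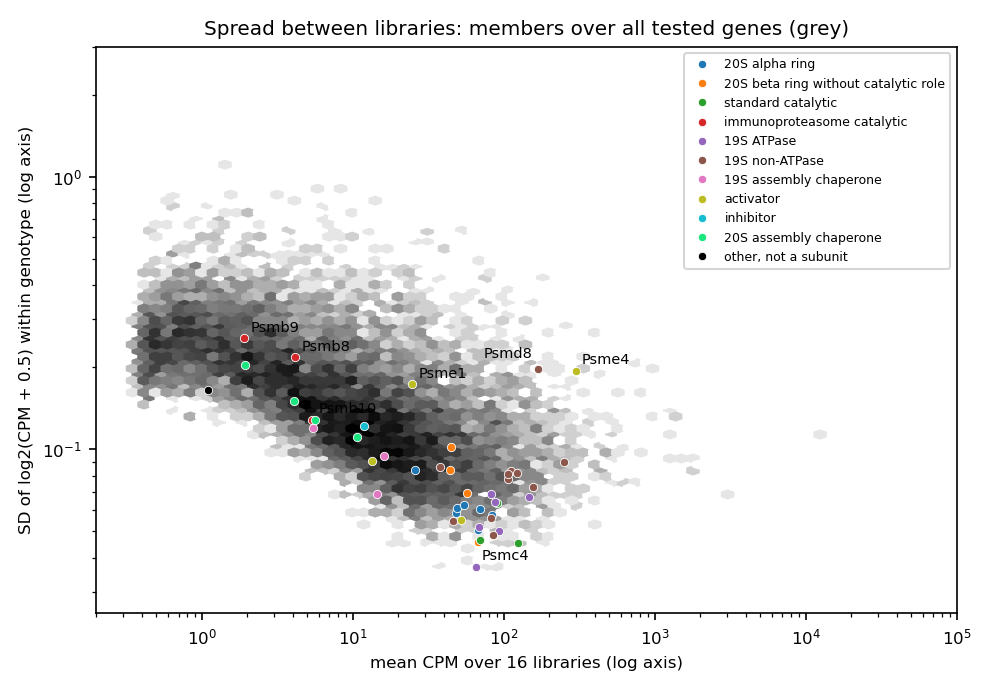
SD of log2(CPM + 0.5) within genotype against mean CPM over the 16 libraries, both on log axes, for the 47 tested members (coloured by role, 20S core and 19S regulatory particle) over the 13792 tested genes (grey, darker where denser). The SD is lowest for Psmc4 at 0.0371, and Psmd8 and Psme4 stand above the other members of like level at 0.197 and 0.194.

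Among the core and regulatory genes, some libraries held the lowest or highest value more often than others. No such count over all tested genes is given here, so whether this is particular to these genes was not tested. Of the 31 genes, WT replicate 3 held the lowest WT value in 15 and WT replicate 8 the highest in 13. Among KO libraries, replicate 4 was the lowest in 12 and replicate 2 in 10, and replicate 7 was the highest in 11. Summed over the 31 genes the libraries ran from 2546 CPM in KO replicate 2, which also had the lowest total count, to 2847 CPM in WT replicate 8. WT replicate 3, at 2603 CPM, had the highest total count of the 16 libraries. The part of depth in this order was not tested.

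Relations across the 16 libraries were computed for 33 pairs of measures, and 0 had an adjusted permutation p under 0.05. Psmb8 was related to the mean of the leukocyte markers with Pearson r = 0.64 and Spearman rho = 0.63 (permutation p = 0.00849 and 0.0112, adjusted 0.0723 and 0.104). Within KO r was 0.61 and within WT 0.63, and without the 2 libraries farthest from the median leukocyte level it was 0.64. For Psmb10 r was 0.59 and rho 0.59 (permutation p = 0.0155 and 0.0174, adjusted 0.103 and 0.115), with 0.51 within KO and 0.70 within WT, and 0.45 without the 2 farthest libraries. For Psmb9 r was 0.38 and rho 0.29 (permutation p = 0.150 and 0.269, adjusted 0.480 and 0.589), with 0.13 within KO, 0.74 within WT and 0.32 without the 2 farthest. The standard subunit Psmb5 had r = -0.06 and rho = 0.03 with the same markers (permutation p = 0.834 and 0.910, adjusted 0.951 and 0.969), -0.13 within KO, -0.03 within WT and -0.11 without the 2 farthest. Psmb6 had r = -0.33 with them (adjusted permutation p = 0.480), -0.49 within KO and 0.10 within WT. Psmb7 had r = -0.14 (adjusted permutation p = 0.929), -0.12 within KO and -0.10 within WT. In relation to Nfe2l1, Psmb8 had r = -0.71 and rho = -0.69 (permutation p = 0.00188 and 0.00402, adjusted 0.0620 and 0.104), -0.60 within KO, -0.79 within WT and -0.57 without the 2 farthest libraries. Psmb10 had r = -0.57 and rho = -0.55 with Nfe2l1 (permutation p = 0.0222 and 0.0301, adjusted 0.105 and 0.142), and Psmb9 r = -0.46 and rho = -0.35 (permutation p = 0.0691 and 0.180, adjusted 0.253 and 0.539). For the standard subunits r with Nfe2l1 was 0.11 for Psmb5, 0.33 for Psmb6 and 0.12 for Psmb7 (adjusted permutation p = 0.929, 0.480 and 0.929). Nfe2l1 was highest in WT replicates 8 and 1 and KO replicate 7, at 9.76, 9.72 and 9.69 on the log2 scale. The leukocyte mean was lowest there, at 2.17, 2.26 and 2.08. In WT replicate 4 and KO replicates 4 and 3 Nfe2l1 was lowest, at 9.40 in each. There the leukocyte mean was highest, at 3.19, 3.21 and 3.15. The relations with these 2 measures are thus not independent, and how the 2 measures relate was not tested. With the mean of the endothelial markers r was 0.05 for Psmb8, 0.12 for Psmb9 and 0.25 for Psmb10 (adjusted permutation p = 0.951, 0.929 and 0.686). Within KO these values were 0.08, 0.00 and 0.05. Within WT they were -0.51, -0.20 and -0.58 (exact permutation p = 0.206, 0.658 and 0.140, unadjusted). Psmb8 and Psmb9 had r = 0.63 and rho = 0.56 with each other (permutation p = 0.00876 and 0.0273, adjusted 0.0723 and 0.142), 0.61 within KO, 0.66 within WT and 0.51 without the 2 farthest libraries. The other immunoproteasome pairs had lower values, r = 0.37 for Psmb8 with Psmb10 (0.09 within KO, 0.48 within WT) and r = 0.08 for Psmb9 with Psmb10 (-0.27 within KO, 0.35 within WT), with adjusted permutation p of 0.480 and 0.951. Psmb5 and Psmb7 had r = 0.67 and rho = 0.62 (permutation p = 0.00494 and 0.0126, adjusted 0.0723 and 0.104), 0.50 within KO, 0.85 within WT and 0.74 without the 2 farthest libraries. Psmb5 and Psmb6 had r = 0.55 (adjusted permutation p = 0.131), 0.86 within KO and 0.48 within WT. Psmb6 and Psmb7 had r = 0.58 (adjusted permutation p = 0.103), 0.67 within KO and 0.47 within WT.

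**Figure D5:**
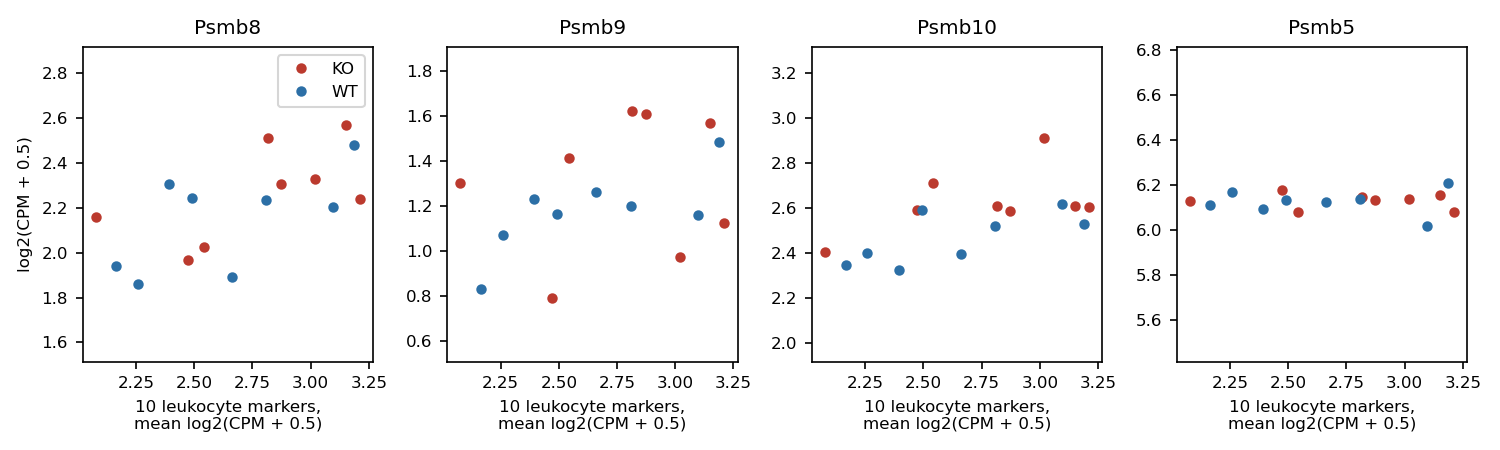
Level of Psmb5, Psmb8, Psmb9 and Psmb10 as log2(CPM + 0.5) against the mean of 10 leukocyte markers on the same scale, 1 point per library, KO and WT in different colours; the y axes differ in position and share a span. Pearson r is -0.06 for Psmb5, 0.64 for Psmb8, 0.38 for Psmb9 and 0.59 for Psmb10, and none passes the adjusted threshold.

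Other genes of the pathway were taken from a list of 34 symbols for ubiquitin, its activating enzymes, shuttle factors, the segregase Vcp and regulators of proteasome genes. Of these, 33 were matched and tested, 0 passed the adjusted test by edgeR, and 22 lay below 0, with a median log2 fold change of -0.02. At an unadjusted p under 0.05 there were 4, all lower in KO, beside 5.55% of all genes in that direction. Ubxn1, a Vcp cofactor, was at 92.3 ± 8.13 CPM in KO, against 107 ± 15.4 CPM in WT (SD, n = 8), a log2 fold change of -0.22 (adjusted p = 0.352 by edgeR). The shuttle factor Ubqln4 had -0.14, the arsenite-inducible proteasome partner Zfand2a -0.14 and the proteasome-bound ubiquitin ligase Ube3c -0.12, with adjusted p of 0.394, 0.404 and 0.401. The most abundant of the list were Nfe2l1, at 732 ± 53.0 CPM in KO, against 753 ± 69.5 CPM in WT (log2 fold change -0.04, adjusted p = 0.880), and the ubiquitin gene Ubb, at 650 ± 24.5 and 649 ± 25.6 CPM (0.00, adjusted p = 0.996).

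Genes of antigen processing and interferon signalling, the setting in which the immunoproteasome is known to act, were all tested, 18 of 18, and 0 passed the adjusted test by edgeR. Of these 13 lay above 0, with a median log2 fold change of 0.08. At an unadjusted p under 0.05, the receptor-bound kinases of interferon signalling lay below 0, Jak1 at -0.15 (adjusted p = 0.433 by edgeR) and Jak2 at -0.35 (adjusted p = 0.192), the latter from 60.5 ± 10.1 CPM in WT to 47.5 ± 5.22 CPM in KO (SD, n = 8). The abundant class I gene H2-D1 had 0.11 (adjusted p = 0.776).

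Some members share exon bases with a gene on the opposite strand, and no source used here gives the strand setting of the counting. Psmb9 shares 212 of its 3660 exon bases with Tap1, the peptide transporter gene at 4.25 CPM, so reads of these genes may not be told apart there. Psmb7 shares 405 bases with Nek6, Psmd13 342 with Sirt3, Psmc3 215 with Slc39a13 and Psmc3ip 385 with Mlx. Estimated counts that were not whole numbers, which arise where reads fit more than 1 gene, occurred in at least 5 libraries for 11 members, among them Psme2, Psmc1 and Psmd2 (tolerance 0.01).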

How the data were processed

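Per the labels' protocols, polyadenylated quadriceps RNA was made into libraries with a Tecan mRNA kit and sequenced as 52-base read pairs. The submitters' processing notes name the build GRCm38 and the tools STAR, Salmon and bcl2fastq 4.0.3. The authors deposited estimated counts for each gene, not scaled to depth by the authors. Other versions, the annotation and the strand setting: not given in the sources used here. Of the values 11.1% were not whole and all were rounded.

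KO and WT were compared over all genes with edgeR 4.0.16 (R 4.3.3): quasi-likelihood F test, TMM, default low-count filter (13792 genes left, 0.0705% of counts removed), Benjamini-Hochberg adjustment, threshold 0.05. CPM use TMM-scaled sizes. Intervals are at 95% and cover the spread between libraries; those of the ratios invert the permutation test. DESeq2 1.42.0, limma 3.58.1, other scalings and filters, covariates and left-out libraries were alternatives. Exact tests over 8 against 8 cannot go below p = 0.000155. The code was tested on simulated data.

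Members, role groups and lists were chosen with earlier results of these data known. Named are the 6 catalytic subunits, Psme1, Psme2, members at an unadjusted p under 0.05, and the extremes of each role group in level per length and fold change; of other lists, genes at an unadjusted p under 0.05 and the 2 most abundant, except that some genes of these lists are not reported here. Psmd8, Psme4, Psmd4, Psmd14 and the library-by-library notes were picked after their values were seen. The labels do not say that libraries came from separate animals, so p-values reflect only how these samples vary, which may be technical. Within each genotype, every pair of libraries differed by more than sampling noise.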

Additional observations from a re-analysis of the deposited data

Results flagged for a closer look

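Within the 8 libraries of a genotype, 1 library stood apart from the other 7 for 9 members, by a gap between it and its nearest neighbour larger, as a share of the whole range, than Dixon's 95% value; chance alone gives about 1 in 20 of the groups examined. KO replicate 2, the library with the lowest total count, was the lowest KO library for Psma5 at 24.2 CPM, for Psmd1 at 136 CPM and for Psmd3 at 97.4 CPM. KO replicate 3 was the lowest for the assembly chaperone Psmd9 at 13.7 CPM, and KO replicate 6 was the highest for Psme1 at 32.1 CPM. In WT, replicate 3 was the lowest for Psme4 at 214 CPM. WT replicate 8 was the highest for Psmc6 at 73.0 CPM, replicate 6 for Psmd12 at 90.0 CPM and replicate 1 for Psmg1 at 6.70 CPM. No share of all tested genes that meet the same rule is given here, so whether 9 members exceeds it is not known. The cause was not tested.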

How the results depend on the processing

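No member was called in any of the 27 alternative fits. In DESeq2, Psmb8, Psmb9 and Psmb10 had no adjusted p and so could not be called there. Genes called over the whole table numbered 6, and 102 with DESeq2, 2 with median-of-ratios size factors, 2 with library totals only, 3 without a low-count filter and 2 with the replicate block. Leaving out 1 library they numbered from 2, in several leave-outs of either genotype, to 8, without WT replicate 7. Without KO replicates 1, 3, 5 and 8 they numbered 2. Those 4 KO libraries had more RNA without a poly(A) tail, with a mean log2 level of 3.19 to 3.50 against 2.36 to 2.84 in the other KO libraries and 2.49 to 3.199 in WT. The cause of these shifts was not tested. The members' median log2 fold change stayed between -0.03 and -0.01. The sign turned in some of the 27 fits for 15 of 47 members, among them Psmb5, Psme1 and Psme2. Psmb5 was -1.52e-07 with the carry-over covariate, which is the level of that RNA, and -0.0033 without the 4 KO libraries, and ran from -0.0098 to 0.019 leaving out 1 library. Psme1 was 0.0054 with that covariate and 0.020 without the 4, and ran from -0.097 to 0.015. Psme2 was 0.0076 with library totals and 0.0024 with upper-quartile scaling, and ran from -0.032 to 0.018. The Psmb10 to Psmb7 ratio ran from 0.12 to 0.21 leaving out 1 library, Psmb9 to Psmb6 from 0.10 to 0.24 and Psmb8 to Psmb5 from 0.07 to 0.16. Same-numbered deviations correlated from -0.11 to 0.25, and 2 of 8 KO libraries correlated best with their own number. The labels do not say whether replicate numbers pair the libraries, and these values cannot settle it. With the replicate block the exact permutation p adjusted over the 3 ratios was 0.0938, 0.352 and 0.211 in that order, and 0 members were called. The upper ends of the edgeR intervals were 1.29-fold for Psmb8, 1.43-fold for Psmb9 and 1.26-fold for Psmb10. For these genes of low count a change beyond 1.2-fold is not excluded, and the part of depth was not tested.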
